A study of Mus musculus with 6 samples.

Results

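The subunits of the mitochondrial respiratory chain and ATP synthase that are encoded in the nucleus were compared between the thymus of 2 mouse crosses. The members were taken by gene symbol (Nduf genes for complex I except the Ndufaf assembly factors, Sdha to Sdhd for complex II, Uqcr genes and Cyc1 for complex III, Cox4 to Cox8 genes for complex IV, Atp5 genes for complex V), using probe sets with exactly 1 symbol. They were 83 genes of 18194 genes with 1 symbol on the array, and each was read from its probe set with the highest mean over the 6 arrays. By complex there were 36 members of complex I, 4 of complex II, 9 of complex III, 17 of complex IV and 17 of complex V. The rule itself uses symbols and levels, not differences between the crosses.

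Whole thymus was taken from adult female mice and frozen, and each of 2 hybrids was measured on 3 arrays, (AKR/J x FVB/NJ)F1, here the AKR cross, and (DBA/2J x FVB/NJ)F1, here the DBA cross. All 6 arrays thus carry an FVB/NJ haplotype and differ in the other parent, no animal was given a drug or transgene in the labels, and the design text asks for basal expression differences between the genotypes. The labels do not say that each array came from a separate animal, so p-values here cover only how far the arrays of a cross spread, and part of that spread may be technical. Values are log2 probe set levels, and differences are AKR cross minus DBA cross on that scale, with the standard error (SE). Called means an adjusted p under 0.05 in limma (Benjamini-Hochberg, over the 12855 genes tested), and a called gene is termed AKR-high or DBA-high by the cross with the higher mean. In whole tissue, fewer cells of a type and less RNA per cell cannot be told apart.

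The respiratory chain passes electrons from NADH (complex I) and succinate (complex II) through coenzyme Q to complex III, cytochrome c and complex IV, and complex V makes ATP from the proton gradient that complexes I, III and IV build. Most subunits are nuclear genes that are transcribed together with the demand of the tissue for mitochondria, with nuclear respiratory factor 1, the ETS factor GABP and YY1 as known regulators. A few core subunits are made inside the mitochondrion from its own genome. Dividing thymocytes rely on both glycolysis and oxidative phosphorylation.

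All 6 arrays read as thymus. The 14 tested thymocyte markers, among them Cd3d (12.91 to 13.11), Rag1 (12.88 to 13.10) and Dntt (12.98 to 13.13), were present on every array. Of the 14 markers 2 were AKR-high, Thy1 (0.37 ± 0.05) and Cd3e (0.30 ± 0.04), and 0 were DBA-high by limma (3 and 0 at an unadjusted p under 0.05). The log2 of the summed signal of the list ran from 15.99 to 16.12 in the AKR cross and from 15.98 to 16.00 in the DBA cross. Array medians ran from 5.92 to 5.94, and the correlation of arrays over all probe sets was 0.994 to 0.996 within a cross and 0.984 to 0.989 between crosses. DBA replicate 1 stood apart in skeletal muscle markers and AKR replicate 3 was lowest in fat markers, with values given below beside the isoforms they touch. The 3' minus 5' log2 signal of the actin control, a measure of RNA integrity, was 0.28 to 0.37 in the AKR cross and 0.34 to 0.39 in the DBA cross. For the Gapdh control it was -0.30 to -0.23 and -0.27 to -0.21. The other controls spread more, Tfrc with 1.94 to 2.22 and 1.93 to 2.05, and Pcx with 0.23 to 0.71 and 0.31 to 0.60.

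Subunits of the respiratory chain read slightly above the DBA cross in AKR cross thymus, and the calls ran almost entirely in that direction. Of 81 tested members (2 failed the filter on dim probe sets), 20 were AKR-high, 1 was DBA-high and 60 were not called. Over all tested genes 24.0% were called, 12.5% AKR-high and 11.5% DBA-high, against 24.7% of the members in the AKR direction. At an unadjusted p under 0.05 (limma) the member counts were 34 and 2. The called differences in the AKR direction were small, from 1.13-fold to 1.48-fold. The median over the 81 members was 0.12, where the median over all tested genes was 0.03. The members have bright probe sets, so the same was read among genes with a probe set mean of at least 10. There the median was 0.12 for 68 members and -0.01 for 1688 genes, of which 15.6% were AKR-high and 19.0% DBA-high. All AKR arrays lay above all DBA arrays in 30 members and below them in 3. That was so in 24.5% and 19.4% of all tested genes, 43.9% in both directions together. The count of 20 depended on which array was left out. Leaving out AKR replicate 1 gave 13 AKR-high members, AKR replicate 2 gave 11, DBA replicate 2 gave 11 and DBA replicate 3 gave 12. With AKR replicate 3 left out it was 19, and with DBA replicate 1 left out 26. The share of all tested genes that was AKR-high in those 6 fits was 7.68%, 7.90%, 6.95%, 7.16%, 7.77% and 11.1% in that order. The DBA-high share was 8.87%, 7.37%, 7.39%, 8.01%, 9.33% and 8.53%, with 1 or 2 members. Without sharing of variance between genes 6 members were AKR-high, beside 5.65% AKR-high and 4.99% DBA-high of all tested genes. With eBayes run without the mean-variance trend 11 members were AKR-high, beside 11.2% and 9.72% of all tested genes. After quantile normalization 29 members were AKR-high and 1 was DBA-high, and of all tested genes 16.9% were AKR-high and 10.3% DBA-high.

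**Figure D1:**
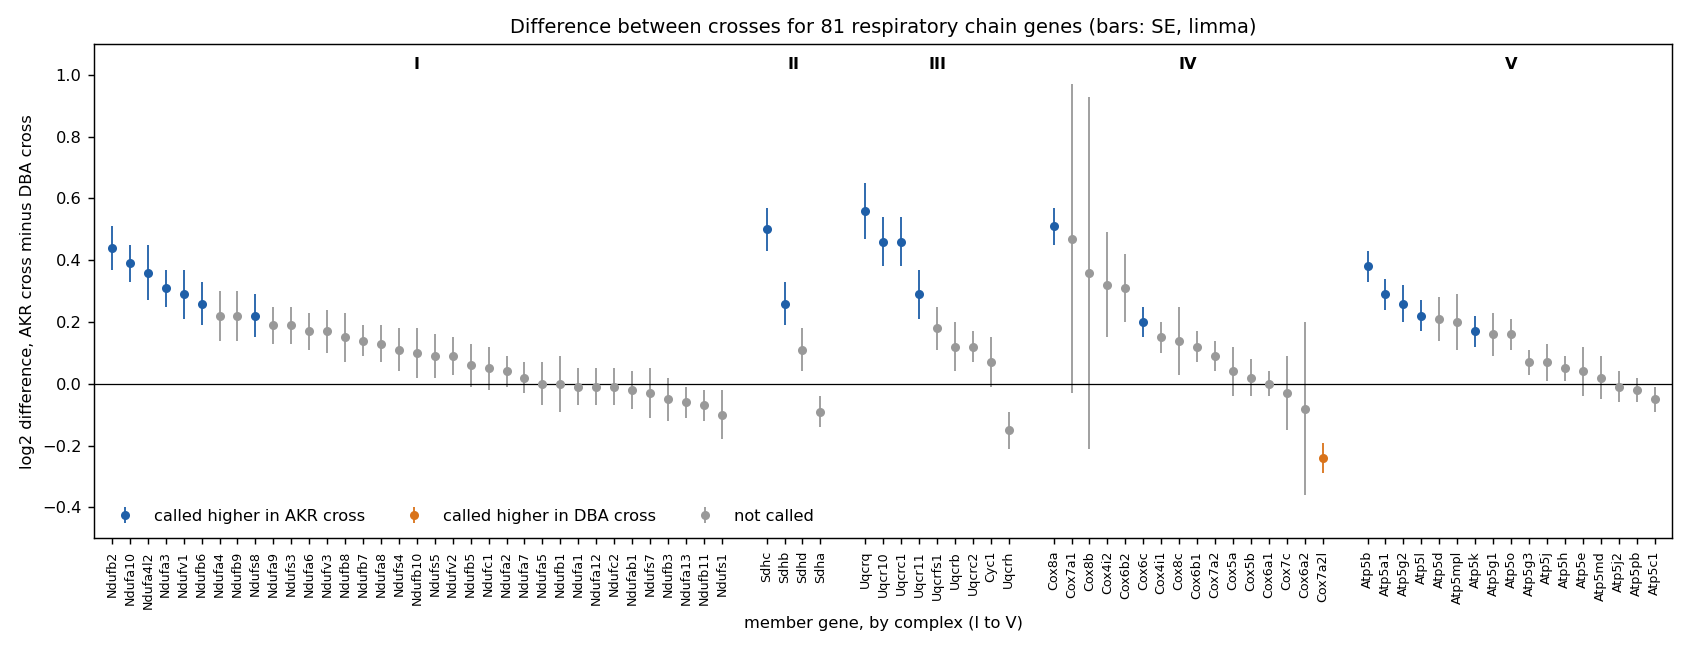
Log2 difference between crosses (AKR cross minus DBA cross) for the 81 tested members, grouped by complex and ordered by size, with the SE of limma as bars. Blue points are the 20 AKR-high members, the orange point is Cox7a2l, and grey points were not called; 64 members lie above 0 and 17 below.

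The shift was not equal on all arrays of a cross. Each member was set against its own mean over the 6 arrays, and the median over the 81 members was 0.12, 0.08 and 0.01 on AKR replicates 1 to 3 and 0.01, -0.08 and -0.12 on DBA replicates 1 to 3. AKR replicate 3 and DBA replicate 1 thus met in the middle, with 0.0007 between them. At each replicate number the AKR median lay above the DBA median, and both fell from replicate 1 to 3. Whether equal numbers pair the arrays is unknown. For complex III the medians were 0.13, 0.14 and 0.02 against 0.01, -0.14 and -0.16. In complex I, DBA replicate 1 (0.03) lay above AKR replicate 3 (0.02), and in complex IV it did so as well (-0.01 against -0.06). The same medians over all 12855 genes stayed between -0.03 and 0.02.

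**Figure D2:**
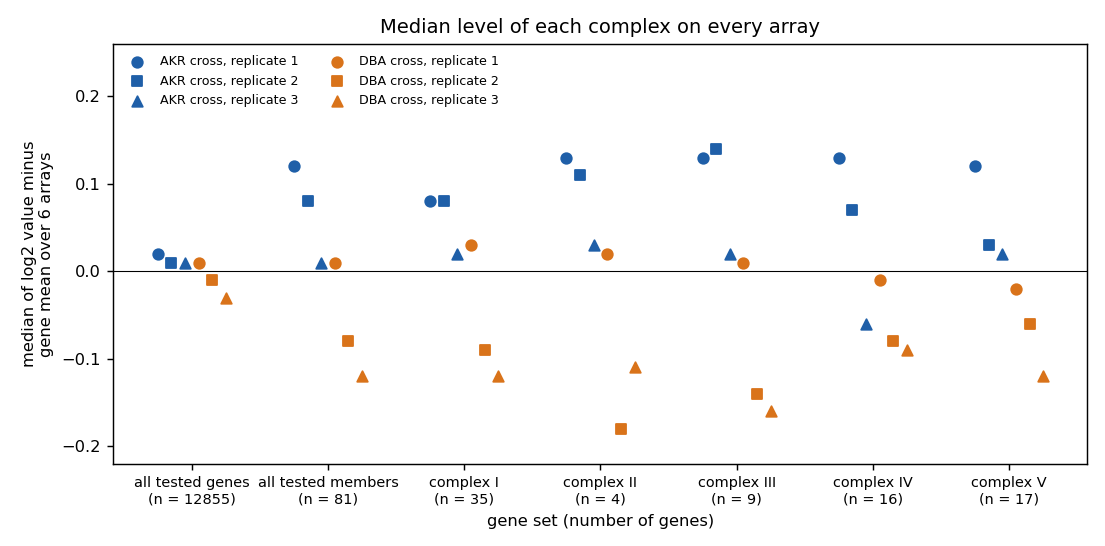
Median over the genes of each set of the log2 value minus the gene's mean over the 6 arrays, for every array; blue marks the AKR cross, orange the DBA cross, and the shape the replicate number. For all members AKR replicates 1 and 2 (0.12 and 0.08) lie highest, DBA replicates 2 and 3 (-0.08 and -0.12) lowest, and AKR replicate 3 and DBA replicate 1 share 0.01.

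Complex I, the NADH dehydrogenase, had 7 of 35 tested members AKR-high and 0 DBA-high by limma (15 and 0 at an unadjusted p under 0.05), with a median of 0.10. These counts go by gene symbol and so include Ndufa4 and its paralog Ndufa4l2, described below. Ndufb2, an accessory subunit of the membrane arm, read 10.64, 10.55 and 10.48 in the AKR cross and 10.23, 10.09 and 10.05 in the DBA cross. Every AKR array was above every DBA array, and the difference was 0.44 ± 0.07 (SE, adjusted p = 0.00352, limma). Ndufa10, an accessory subunit, read 11.02, 11.16 and 11.08 against 10.79, 10.64 and 10.66. The groups were again apart, by 0.39 ± 0.06 (adjusted p = 0.00363, limma). Ndufa3, a small accessory subunit, read 11.76, 11.74 and 11.70 against 11.54, 11.32 and 11.42, a difference of 0.31 ± 0.06 (adjusted p = 0.00853, limma). A further probe set of Ndufb2 and one of Ndufa3 were called the same way. The other Ndufa10 probe set was not called (0.07 ± 0.12), and the mean of both differed by 0.23 and was not called (adjusted p = 0.0730, limma). Ndufb6 read 11.15, 11.07 and 10.96 against 10.87, 10.77 and 10.74 (0.26 ± 0.07, adjusted p = 0.0202, limma). The other Ndufb6 probe set was not called (-0.13), and the mean of both differed by 0.07.

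The core subunits of complex I include those with the flavin and iron-sulphur clusters that hand electrons to coenzyme Q. Of the 6 tested core subunits 2 were called. Ndufv1, which binds NADH and the flavin, differed by 0.29 ± 0.08, and all 3 of its probe sets were AKR-high. Ndufs8, an iron-sulphur protein, differed by 0.22 ± 0.07, with 2 of its 5 other probe sets called the same way. Ndufs1, the largest iron-sulphur subunit, read 9.60, 9.74 and 9.65 against 9.91, 9.69 and 9.70, groups that overlapped, and its difference of -0.10 had a 95% interval from -0.28 to 0.08. Ndufa4l2, a paralog of Ndufa4 known as a hypoxia-induced gene, was called at 0.36 ± 0.09. Ndufa4 itself, now assigned by protein studies to complex IV, differed by 0.22 ± 0.08 and was not called (adjusted p = 0.0612, limma). The calls of Ndufb6, Ndufs8 and Ndufa4l2 were each lost without AKR replicates 1 or 2 or DBA replicates 2 or 3 (adjusted p from 0.0583 to 0.0703, from 0.102 to 0.121 and from 0.0643 to 0.0833, limma). That of Ndufv1 was lost without AKR replicates 2 or 3 or DBA replicates 2 or 3 (0.0615 to 0.0942). Ndufb2, Ndufa10 and Ndufa3 kept theirs without each array in turn.

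Complex II, succinate dehydrogenase, also belongs to the citric acid cycle and has no subunit from the mitochondrial genome. Sdhc, which helps anchor the enzyme in the membrane, read 10.33, 10.37 and 10.34 in the AKR cross and 9.98, 9.78 and 9.79 in the DBA cross. The AKR arrays lay within 0.02 (SD) of their mean and above all DBA arrays, with a difference of 0.50 ± 0.07 (1.41-fold, adjusted p = 0.00179, limma), and its other tested probe set was called the same way (0.34 ± 0.07). Sdhb, the iron-sulphur subunit, read 11.31, 11.37 and 11.21 against 11.15, 10.97 and 10.99, a difference of 0.26 ± 0.07 (adjusted p = 0.0228, limma). The Sdhb call was lost without AKR replicates 1 or 2 or DBA replicates 2 or 3 (0.0581 to 0.0834). Sdhd, the other membrane anchor, differed by 0.11 (95% interval -0.05 to 0.26). Sdha, the flavoprotein that oxidises succinate, read 11.08, 11.15 and 11.12 against 11.24, 11.13 and 11.22, with overlapping groups and a difference of -0.09 (95% interval -0.20 to 0.03).

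Complex III, the cytochrome bc1 complex, had 4 of 9 members called, each AKR-high, and a median of 0.18. Uqcrq, a small subunit next to cytochrome b, had the largest difference of the tested members. It read 11.21, 11.09 and 11.03 against 10.74, 10.46 and 10.44, which is 0.56 ± 0.09 (1.48-fold, adjusted p = 0.00266, limma), with no overlap. Read from a probe set that is not of the _s_at kind, it differed by 0.29 and was not called (adjusted p = 0.0742, limma). Uqcrc1, a core protein of the matrix side, read 11.34, 11.43 and 11.28 against 11.06, 10.82 and 10.80 (adjusted p = 0.00386, limma), again without overlap. Uqcr11, a small membrane subunit, differed by 0.29 ± 0.08, and its call was lost without AKR replicates 1 or 2 or DBA replicates 2 or 3 (adjusted p from 0.0882 to 0.0979, limma). Uqcr10, another small membrane subunit, read 11.01, 11.05 and 10.82 against 10.57, 10.55 and 10.39 on the brightest of its probe sets, a difference of 0.46 ± 0.08 (adjusted p = 0.00416, limma). Its direction is uncertain, because its 2 other tested probe sets read lower in the AKR cross, 1 of them called, as given below. The subunits with the redox centres were not called. Cyc1, cytochrome c1, differed by 0.07 (95% interval -0.10 to 0.25) and Uqcrfs1, the Rieske iron-sulphur protein, by 0.18 (0.03 to 0.34, adjusted p = 0.0869, limma). Uqcrh, the hinge protein, was the one complex III member with a negative difference on its brightest probe set, at -0.15 (-0.28 to -0.02, adjusted p = 0.0800, limma). The other Uqcrh probe set, of like brightness, differed by 0.01 ± 0.05.

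Complex IV, cytochrome c oxidase, has its catalytic subunits encoded in the mitochondrial genome, and its nuclear members are the surrounding small subunits. Of 16 tested, 2 (12.5%) were AKR-high and 1 was DBA-high, beside 12.5% AKR-high and 11.5% DBA-high of all tested genes. The AKR-high share was thus that of all tested genes. The median was 0.13, and it was 0.06 over the 10 members without the tissue-restricted forms described below. Cox8a, the smallest subunit in its ubiquitous form, read 11.43, 11.48 and 11.39 in the AKR cross and 11.02, 10.91 and 10.83 in the DBA cross. No array crossed over, and the difference was 0.51 ± 0.06 (1.42-fold, adjusted p = 0.000897, limma), the smallest adjusted p among the members. A further Cox8a probe set was called the same way (0.50 ± 0.07). Cox6c read 12.39, 12.36 and 12.32 against 12.25, 12.06 and 12.17 (0.20 ± 0.05, adjusted p = 0.0290, limma). The Cox6c call was lost without any one of the arrays other than DBA replicate 1 (adjusted p from 0.0547 to 0.0895, limma), its other probe set differed by -0.03, and the mean of both, 0.08, was not called (adjusted p = 0.283, limma). Cox4i1, Cox5a, Cox5b, Cox6a1, Cox6b1 and Cox7a2, the ubiquitous forms of 6 more subunits, were not called. On their brightest probe sets they differed by 0.00 (Cox6a1) to 0.15 (Cox4i1). Other probe sets were AKR-high in Cox5b (0.23 and 0.41), Cox6a1 (0.34) and Cox7a2 (0.23), and one was DBA-high in Cox5a (-0.14). Their remaining tested probe sets were not called.

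Cox7a2l was the exception. It encodes a relative of the complex IV subunit Cox7a2 that joins complexes III and IV into supercomplexes, and it is known to differ in sequence between inbred mouse strains. It read 11.49, 11.36 and 11.43 in the AKR cross and 11.64, 11.68 and 11.68 in the DBA cross, so every DBA array was above every AKR array. The difference was -0.24 ± 0.05 (1.18-fold in favour of the DBA cross, adjusted p = 0.0103, limma), and it kept its call without each array in turn (differences from -0.28 to -0.21). Of its other probe sets 1 was called the same way (-0.24 ± 0.05) and 1 was not called (-0.05 ± 0.06). Without the mean-variance trend in eBayes its adjusted p was 0.0503 (limma).

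Some complex IV subunits have forms restricted to certain tissues, and several of these were high and low on the same arrays as fat or muscle markers. Cox8b and Cox7a1 are the forms of brown fat, heart and muscle. Cox8b read 9.41, 10.04 and 7.87 in the AKR cross and 9.88, 8.28 and 8.08 in the DBA cross, a 4.51-fold range over the 6 arrays. Cox7a1 read 7.52, 8.32 and 6.48 against 7.97, 6.73 and 6.21. Both were high on AKR replicates 1 and 2 and DBA replicate 1 and low on the other 3 arrays. Ucp1, the uncoupling protein that defines brown fat, read 9.59, 10.23 and 7.75 against 10.07, 8.71 and 8.32, high and low on the same arrays, and Cidea, another brown fat gene, did too (8.91, 9.37 and 7.29 against 9.46, 7.93 and 7.79). Between crosses Cox8b differed by 0.36 (95% interval -0.92 to 1.65) and Cox7a1 by 0.47 (-0.65 to 1.59), and neither was called.

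Cox6a2, the heart and muscle form of Cox6a, read 7.36, 7.14 and 7.20 in the AKR cross and 8.10, 6.96 and 6.87 in the DBA cross, so that DBA replicate 1 alone was high. Acta1, skeletal muscle actin, read 9.19, 9.28 and 6.09 against 11.99, 7.30 and 8.39, also highest on DBA replicate 1. Over the 16 tested muscle markers 0 were called by limma (0 also at an unadjusted p under 0.05 and by the test without shared variance), and the log2 of their summed signal ran from 10.13 to 11.51 in the AKR cross and from 10.28 to 14.00 in the DBA cross. For the 10 tested fat markers the counts were also 0, and the sums ran from 11.40 to 12.74 and from 12.18 to 12.97. The lowest value among the defining markers Ucp1, Cidea, Acta1 and Ckm was 6.09 (Acta1 on AKR replicate 3), where array medians were 5.92 to 5.94. The part of these tissues in the member medians was not tested. With DBA replicate 1 left out, 26 members were AKR-high, beside 11.1% of all tested genes. That array also had the highest member median of the DBA arrays (0.01), and why the count rose was not tested. Cox4i2, a form of lung and oxygen-sensing cells, Cox6b2, known from testis, and Cox8c, also known from testis, were not called, with differences of 0.32 ± 0.17, 0.31 ± 0.11 and 0.14 ± 0.11. Cox7b2 read 3.03 to 3.41 and failed the filter on dim probe sets, as did Ndufb4 (4.12 to 4.58).

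**Figure D3:**
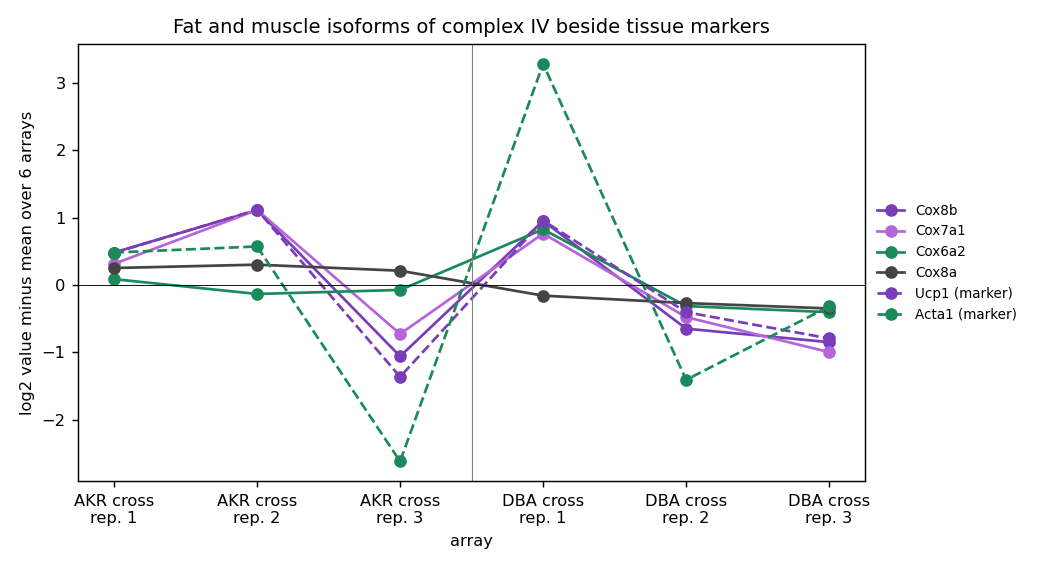
Log2 value minus the gene's mean over the 6 arrays, by array, for the complex IV isoforms Cox8b, Cox7a1 and Cox6a2 (solid), the ubiquitous Cox8a (grey) and the markers Ucp1 and Acta1 (dashed). Cox8b and Cox7a1 rise and fall with Ucp1, Cox6a2 peaks on DBA replicate 1 where Acta1 reaches 11.99, and Cox8a alone is higher on all 3 AKR arrays.

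Complex V, ATP synthase, had 5 of 17 members AKR-high and 0 DBA-high by limma (7 and 0 at an unadjusted p under 0.05), and a median of 0.16. The alpha and beta subunits of the catalytic head had the smallest adjusted p among them. Atp5b, the beta subunit where ATP is made, read 12.96, 13.03 and 12.97 against 12.70, 12.55 and 12.56 (adjusted p = 0.00115, limma). Atp5a1, the alpha subunit that forms the head with it, read 12.66, 12.71 and 12.66 against 12.48, 12.32 and 12.37, a difference of 0.29 ± 0.05 (adjusted p = 0.00406, limma). In both genes all AKR arrays lay above all DBA arrays. Its other tested probe set gave Atp5a1 a difference of 0.14 that was not called. Atp5c1, the gamma subunit that turns inside this head, read 12.13, 12.13 and 12.08 against 12.22, 12.15 and 12.14 with all DBA arrays just above all AKR arrays, and was not called (-0.05, 95% interval -0.15 to 0.05). Atp5d and Atp5e, the delta and epsilon subunits of the central stalk, differed by 0.21 ± 0.07 (adjusted p = 0.0579, limma) and 0.04 ± 0.08.

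Atp5g1, Atp5g2 and Atp5g3 encode the same mature c subunit of the rotor ring with different import signals. Atp5g2 read 11.31, 11.32 and 11.26 against 11.09, 11.10 and 10.93, without overlap (0.26 ± 0.06, adjusted p = 0.0156, limma). Its other tested probe set gave -0.09 ± 0.23, and the mean over its probe sets differed by 0.08 and was not called (adjusted p = 0.615, limma). Atp5g1 (0.16, 95% interval 0.00 to 0.33) and Atp5g3 (0.07, -0.03 to 0.17) had overlapping groups and were not called. The difference between the 3 genes was not tested. Of the membrane-embedded accessory subunits Atp5l was called (0.22 ± 0.05, adjusted p = 0.0145, limma), and Atp5k was called at 0.17 ± 0.05 (adjusted p = 0.0463, limma). None of the 4 peripheral stalk genes was called by limma (1 at an unadjusted p under 0.05), and their differences had a median of 0.06. Atp5o came nearest (0.16 ± 0.05, adjusted p = 0.0509, limma). The other Atp5pb probe set was AKR-high (0.17 ± 0.06, adjusted p = 0.0485 over probe sets, limma), where the brightest gave -0.02. The other probe sets of Atp5h and Atp5o were not called. Atp5g2 missed the threshold with AKR replicate 2 left out (adjusted p = 0.0503, limma), the Atp5l call without DBA replicate 2 (0.0583), and the Atp5k call without any one of the arrays other than DBA replicate 1 (0.0515 to 0.144).

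**Figure D4:**
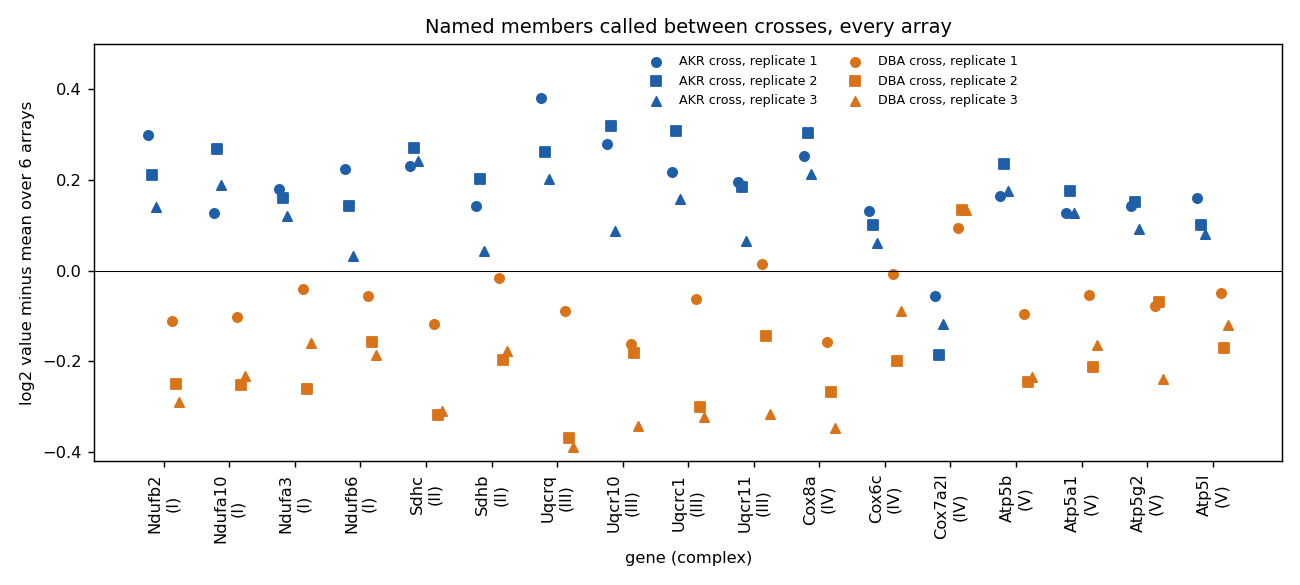
Log2 value minus the gene's mean over the 6 arrays, for 17 members called between crosses, with one point per array (blue for the AKR cross, orange for the DBA cross, shape for the replicate number). The AKR points lie above the DBA points in 16 genes and below them in Cox7a2l, and DBA replicate 1 is the highest DBA array in genes such as Uqcrq (10.74) and Atp5b (12.70).

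Of 5 AKR-high members whose promoter holds a match to a known regulator's motif, 3 are shown here. The promoter of Cox7a2l, the DBA-high member, is given with them. All come from RefSeq (build GRCm38.p6), whose table held 67 of the 83 members. The 250 bases before the start site were searched on both strands for GCGC, any base and TGCGC in a row (nuclear respiratory factor 1), CCGGAAG (ETS factors such as GABP) and AANATGGCG (YY1), motifs chosen with the expression values known. Capitals mark a match. Atp5g2 lies at chr15:102671048-102671297 on the minus strand, Atp5k at chr5:108434400-108434649 on the minus strand, Uqcr11 at chr10:80406822-80407071 on the minus strand and Cox7a2l at chr17:83514334-83514583 on the minus strand.
Atp5g2: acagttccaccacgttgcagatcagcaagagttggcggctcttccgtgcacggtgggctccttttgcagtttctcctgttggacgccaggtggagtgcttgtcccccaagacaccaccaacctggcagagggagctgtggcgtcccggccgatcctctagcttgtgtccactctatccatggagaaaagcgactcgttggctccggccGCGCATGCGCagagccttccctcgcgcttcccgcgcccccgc
Atp5k: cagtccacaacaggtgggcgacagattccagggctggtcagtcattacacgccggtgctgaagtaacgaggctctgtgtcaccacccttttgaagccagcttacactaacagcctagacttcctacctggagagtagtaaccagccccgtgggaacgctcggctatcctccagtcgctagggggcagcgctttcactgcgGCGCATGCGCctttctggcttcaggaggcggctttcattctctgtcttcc
Uqcr11: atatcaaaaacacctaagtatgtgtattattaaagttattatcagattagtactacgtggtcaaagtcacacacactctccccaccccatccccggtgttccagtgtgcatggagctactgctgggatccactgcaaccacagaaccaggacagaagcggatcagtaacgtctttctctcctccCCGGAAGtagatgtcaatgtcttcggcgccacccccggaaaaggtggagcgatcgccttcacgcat
Cox7a2l: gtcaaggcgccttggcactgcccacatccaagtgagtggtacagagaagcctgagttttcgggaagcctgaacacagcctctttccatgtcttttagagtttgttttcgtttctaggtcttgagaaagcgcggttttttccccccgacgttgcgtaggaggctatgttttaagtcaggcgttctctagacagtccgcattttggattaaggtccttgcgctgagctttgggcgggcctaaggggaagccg
Atp5g2 and Atp5k hold the same palindrome, GCGCATGCGC, from 42 to 33 and from 50 to 41 bases before the start. Uqcr11 holds the ETS letters from 66 to 60 bases before the start, and the Cox7a2l window holds none of these letters. Atp5l and Ndufb6, the AKR-high members with a match that are not shown, hold the ETS letters farther away. These lie from 212 to 206 and from 232 to 226 bases before the start. The nuclear respiratory factor 1 letters were in 12 of 72 member promoters (16.7%), against 7.39% of the promoters of tested genes and 3.74% of all promoters in the table. The ETS letters were in 16.7% of member promoters, against 12.6% and 6.91%, and the YY1 letters in 4.17%, against 1.89% and 1.12%. Among promoters of AKR-high members, 2 of 15 held the nuclear respiratory factor 1 letters, and 9 of 54 did among tested members not called. For the ETS letters these counts were 3 of 15 and 9 of 54, and for the YY1 letters 0 of 15 and 3 of 54. Of the 15 AKR-high members' promoters 5 held any of the 3 motifs, and of the 49 tested members not called 16 had a promoter that did. A match is a description of these letters in the reference genome, and sequence of the AKR/J, DBA/2J and FVB/NJ strains was not analysed here.

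Probe sets of one gene did not always read alike. The 83 members had 170 probe sets, of which 158 were tested. Of these 42 (26.6%) were AKR-high and 6 (3.80%) DBA-high, with adjustment over all 27385 probe sets tested, against 12.2% and 15.0% of all probe sets (27.2% in both directions together). Among 47 members with 2 or more tested probe sets the range of differences within a gene had a median of 0.18 and exceeded 0.3 in 15 genes. Of 15 called members with another tested probe set, 8 had another called the same way and 1, Uqcr10, had another called the other way. Of 32 members not called, 10 had another probe set AKR-high and 3 had one DBA-high.

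The widest splits were in Uqcr10, Sdha and Ndufab1. The dim Uqcr10 probe set read 4.92, 4.78 and 4.64 in the AKR cross and 7.03, 6.95 and 6.98 in the DBA cross, 4.62-fold in favour of the DBA cross (-2.21 ± 0.10, adjusted p = 3.11e-06 over probe sets, limma), where the brightest gave 0.46. The remaining Uqcr10 probe set gave -0.40 ± 0.18 and was not called (adjusted p = 0.137 over probe sets, limma). The mean of the 3 Uqcr10 probe sets differed by -0.72. A dim Sdha probe set read 5.37, 5.25 and 5.34 against 6.28, 7.53 and 7.20 (-1.68 ± 0.26), while the 2 brighter ones gave -0.09 and -0.11. For Ndufab1, the mitochondrial acyl carrier protein that is also a complex I subunit, a dim probe set read 7.05, 7.21 and 7.18 against 6.11, 5.98 and 5.68 (1.22 ± 0.12), while the brightest gave -0.02 ± 0.06. Each of these dim sets separated the crosses without overlap. Smaller splits were seen in Ndufs7 (0.48 against -0.03 on the brightest), Atp5d (0.58 against 0.21) and Cox6a1 (0.34 against 0.00), named after their values were seen. Whether sequence differences between the strains lie under these probes was not tested, and the sizes on dim sets are no sizes of a change in the gene's total RNA.

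**Figure D5:**
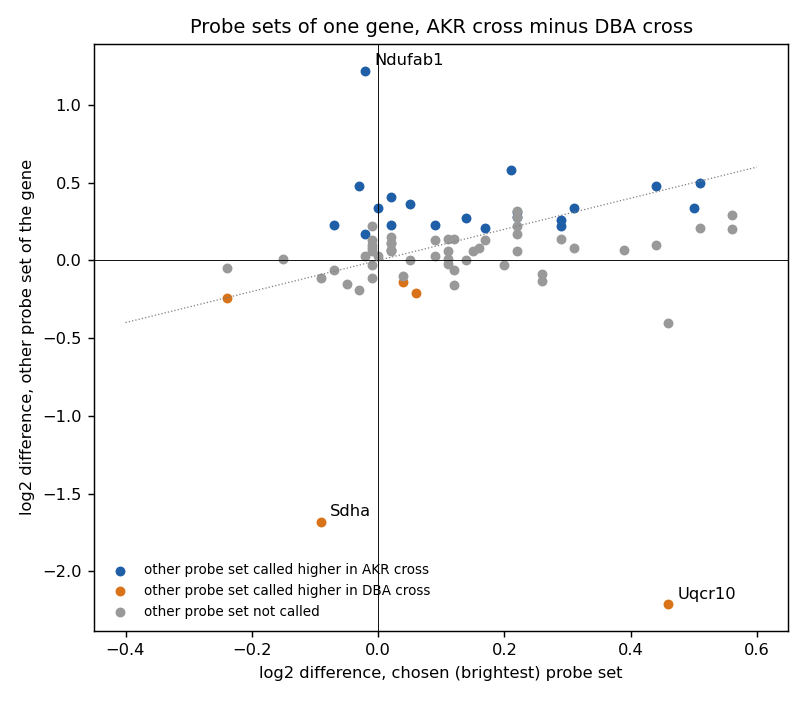
Log2 difference (AKR cross minus DBA cross) of each further tested probe set of a member (vertical) against that of the gene's brightest probe set (horizontal), coloured by the call of the further probe set; the dotted line marks equal values. Uqcr10 (-2.21), Sdha (-1.68) and Ndufab1 (1.22) lie far from the line.

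Genes around the respiratory chain were described by the same fit. The counts of these lists, here and below, stand beside 12.5% AKR-high and 11.5% DBA-high of all tested genes. Assembly factors, which build the complexes and are not part of them, had 8 of 46 tested genes AKR-high and 1 DBA-high, with a median of 0.03. Timmdc1, an assembly factor of complex I, read 7.80, 7.80 and 7.65 against 6.77, 6.60 and 6.49 (2.19-fold, adjusted p = 0.000221, limma), larger than the difference of any member's brightest probe set. Ndufaf4, also of complex I assembly, went the other way (-0.46 ± 0.09, adjusted p = 0.00825, limma), and Coa3, of complex IV assembly, was AKR-high (0.29 ± 0.06). Of 19 genes of electron carriers and coenzyme Q synthesis, 3 were AKR-high, namely Coq7 (0.42 ± 0.08), Coq8b (0.49 ± 0.10) and Coq6 (0.36 ± 0.10), and 0 were DBA-high by limma (1 at an unadjusted p under 0.05). Cytochrome c itself, Cycs, read 11.88, 11.86 and 11.66 against 11.93, 11.81 and 11.75 and was not called. Of the subunits made in the mitochondrion, ND5 was the one tested, at 12.27, 12.26 and 11.97 against 12.35, 12.45 and 12.39. All AKR arrays of ND5 lay below all DBA arrays, and it was not called (-0.23 ± 0.08, adjusted p = 0.0597, limma).

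The citric acid cycle and pyruvate dehydrogenase list had 0 of 25 tested genes AKR-high by limma (3 at an unadjusted p under 0.05) and 1 DBA-high, with a median of 0.00. That gene was Pdk1, the kinase that shuts pyruvate dehydrogenase, at 8.33, 8.35 and 8.53 against 9.32, 8.96 and 9.31 (1.73-fold in favour of the DBA cross, adjusted p = 0.00167, limma). In glycolysis 6 of 18 genes were AKR-high, among them Pkm (0.42 ± 0.06), Ldha (0.36 ± 0.07) and Pfkl (0.48 ± 0.12), with a median of 0.14, and 0 were DBA-high by limma (1 at an unadjusted p under 0.05). Of 15 genes of ADP and ATP exchange and inner membrane organisation, 2 (13.3%) were AKR-high, a share near the 12.5% of all tested genes. They were Chchd6 of the cristae junction (0.49 ± 0.08) and Vdac1 of the outer membrane (0.20 ± 0.06). Mitochondrial ribosomal protein genes, which serve the subunits made inside the organelle, had 17 of 76 AKR-high and 1 DBA-high, with a median of 0.15. That is 22.4% of the list in the AKR direction, beside 24.7% of the respiratory chain members.

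Among regulators of respiratory genes 4 of 30 were DBA-high and 1 was AKR-high, with a median of -0.05. Of all tested genes 11.5% were DBA-high and 12.5% AKR-high, so the DBA-high count is near the share over all genes. Gabpa, the DNA-binding subunit of GABP, read 9.76, 9.75 and 9.70 against 10.09, 10.03 and 10.19 (-0.37 ± 0.07, adjusted p = 0.00514, limma), with no overlap. Sp1 (-0.36 ± 0.07) and Mterf3, a regulator of mitochondrial transcription (-0.35 ± 0.07), were also DBA-high. Nrf1, which encodes nuclear respiratory factor 1, differed by 0.24 ± 0.09 (adjusted p = 0.0869, limma) and Tfam, the packaging factor of mitochondrial DNA, by 0.01 ± 0.07, and neither was called. Cycs, Nrf1 and Tfam were named for their known roles after their values were seen.

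Counts for cell cycle genes and for markers of other cell types are given beside the 12.5% AKR-high and 11.5% DBA-high of all tested genes. Of 23 tested proliferation genes 11 were AKR-high and 0 DBA-high by limma (14 and 0 at an unadjusted p under 0.05), with a log2 summed signal of 15.63 to 15.78 in the AKR cross and 15.51 to 15.52 in the DBA cross. Of 11 B cell markers 5 were AKR-high (10.86 to 10.93 against 10.48 to 10.58). Of 12 myeloid markers 4 were DBA-high and 1 was AKR-high (13.56 to 13.67 against 13.57 to 13.69), of 14 thymic epithelial markers 4 were AKR-high and 3 DBA-high (15.01 to 15.06 against 14.86 to 14.96), and 1 of 5 red cell genes was AKR-high (8.68 to 9.20 against 8.67 to 8.78). Their part in the member differences was not tested.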

How the data were processed

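RNA of 6 mouse thymus samples, extracted with Trizol per the labels' protocols, was hybridised to 1-colour Affymetrix arrays. The authors deposited log2 levels for 45101 probe sets (2.47 to 14.4). The submitters' processing notes list MAS5 and RMA, and which of these gave the log2 values is unknown. Groups came from the sample titles. The levels were taken unchanged, leaving out 64 control probe sets. Testing was limited to the 27385 probe sets exceeding their array's 40th percentile on 3 or more of the 6 arrays. Symbols came from the platform annotation, and 10 probe sets that list a member beside other symbols were left out. Two-sided tests used limma 3.58.1 (lmFit, then eBayes with trend, in R 4.3.3). They were adjusted by Benjamini-Hochberg over 12855 genes or 27385 probe sets. In simulated data with 200 changed genes, the fit recovered 0 at a log2 change of 0.3, 46.0% at 0.5 and 93.5% at 1.0. In the real data 24.0% of genes were called, so these shares do not carry over directly. A member not called is not shown to be equal between the crosses. Members, lists and motifs were chosen with earlier results of these data known. Named members were up to 4 called per complex by adjusted p, the extremes, the tissue-restricted isoforms, Atp5g1 to Atp5g3 and members whose probe sets were called both ways. From each list up to 3 called genes were named, or 1 as a value where none was called. Other members are given for their role. Alternatives were 2 filters, 3 normalizations, 3 variance models, a block for the replicate number, omission of single arrays, and 2 ways to read a gene's probe sets. The number of arrays limits the precision. Figures were drawn with matplotlib 3.10.9.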

Additional observations from a re-analysis of the deposited data

How the results depend on the processing

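Over 17 alternatives the median difference of the members stayed within the spread between arrays of its value of 0.12. Without the mean-variance trend 11 members were called, 11 of them AKR-high and 0 DBA-high. Without sharing of variance between genes 7 were called, 6 of them AKR-high. When probe sets of a gene were averaged 25 members were AKR-high and 3 were DBA-high (Cox7a2l, Sdha and Uqcr10). Of all tested genes 14.2% were AKR-high and 13.3% DBA-high in that fit. The Uqcr10 difference turned to -0.72 there. With each array left out in turn the calls ranged from 12 to 27 in all, from 11 to 26 in the AKR direction and from 1 to 2 in the DBA direction. In those fits Cox6a2 ranged from -0.30 to 0.32 and Cox8b from -0.11 to 0.98, so both changed sign. Of 21 called members 11 kept the call without each array, and 5 (Atp5a1, Atp5b, Cox8a, Ndufb2 and Sdhc) kept it under all 17 alternatives. For 25 named members 376 of 424 values kept direction and call, 41 lost a call, 4 gained one and 3 changed sign. The causes were not tested.

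Whether arrays of equal replicate number belong together is not known. The deviations of same-numbered arrays from their group means correlated at 0.39, 0.07 and 0.37 over 27385 probe sets. Those of arrays with different numbers correlated at -0.38 to 0.07. With the replicate number as a block 34 members were called, 32 AKR-high and 2 DBA-high, among them all 21 called without the block. Calls rose over all tested genes too, to 16.9% AKR-high and 15.7% DBA-high.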
